A study of Homo sapiens with 7 samples.

Results

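The epithelial to mesenchymal transition (EMT) genes described here are the transcription factors SNAI2, ZEB1, ZEB2, TWIST1 and TWIST2, the mesenchymal genes VIM and FN1, and the epithelial regulators GRHL2, ESRP1 and OVOL1. They were chosen by name. Every non-control probe whose gene name on the array is 1 of these 10 symbols was taken, which gave 14 probes out of the 42405 on the array and 10 gene names out of 34809. Gene expression was measured in ACHN cells, a human renal cell adenocarcinoma line, on 7 single-colour Agilent SurePrint G3 arrays. The control cells (EV, 4 arrays) had been transduced with the empty retroviral vector pBabe-hygro and the others (HOTAIR, 3 arrays) with the same vector carrying HOTAIR cDNA, a long noncoding RNA transcribed from the HOXC locus. Both kinds of cells had been selected with hygromycin, and all samples came from this 1 cell line. The comparison asks which genes HOTAIR regulates in these cells.

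In EMT, epithelial cells lose their junctions and polarity and become motile. Zinc finger factors (SNAI1, SNAI2, ZEB1, ZEB2) and basic helix-loop-helix factors (TWIST1, TWIST2) repress E-cadherin and other junction genes, while GRHL2 and OVOL1 hold the epithelial state by repressing ZEB1 among others. ESRP1 and ESRP2 are RNA-binding proteins that direct epithelial splice forms, vimentin (VIM) is the intermediate filament protein of mesenchymal cells, and fibronectin (FN1) is a matrix glycoprotein that many cells secrete when they undergo EMT.

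The ACHN cells showed signal for the whole mesenchymal side of this set and for none of its epithelial side, with and without HOTAIR. All 7 mesenchymal genes had a probe well above background on each of the 7 arrays, and the 3 epithelial regulators had none on any array. This holds for the set only: of the relatives of these regulators, ESRP2, GRHL1 and GRHL3 were detected on all 7 arrays and OVOL2 on none. Of the 7 mesenchymal genes, 0 passed an adjusted p of 0.05 between HOTAIR and EV cells, with log2 differences from -0.22 (ZEB2) to 0.25 (FN1). Over all 20419 tested probes, 34 passed, or 0.167% (27 higher in HOTAIR, 0.132%, and 7 lower, 0.0343%). The 95% confidence interval of vimentin lay between 0.830 and 1.31 times its EV level, while those of FN1 and of a ZEB2 probe reached past 2-fold. Because RNA was taken from whole cultures, fewer cells of a type and less RNA per cell cannot be told apart.

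The probes are single strands of 60 bases, and the probes of VIM and FN1 are shown because vimentin and fibronectin are the structural readouts of the set. Both are listed as unmapped in the hg19 annotation of the array, which names them by the transcripts of VIM and FN1.
VIM: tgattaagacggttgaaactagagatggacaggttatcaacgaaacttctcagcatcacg
FN1: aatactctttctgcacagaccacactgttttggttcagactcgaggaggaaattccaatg
The next pair is shown because in each of these genes the other probe behaved differently. The ZEB2 probe lies on the minus strand at chr2:145182363-145182422 and the TWIST1 probe on the minus strand at chr7:19156462-19156521, both on hg19.
ZEB2: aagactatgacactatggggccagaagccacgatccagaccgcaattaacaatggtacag
TWIST1: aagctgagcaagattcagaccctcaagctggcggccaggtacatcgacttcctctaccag
The GC content of these 4 probes was 41.7% for VIM, 43.3% for FN1, 48.3% for ZEB2 and 55% for TWIST1.

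The second ZEB2 probe lies farther downstream on the same strand, at chr2:145146261-145146320. It holds a match to the seed of a pair of microRNAs known to repress ZEB1 and ZEB2, and 30 bases around that match, at chr2:145146266-145146295, are shown with the 7 matching bases in capitals.
ZEB2 site: ccatccttgtaCAGTGTTaagagggtaaca
The microRNAs of this family fall into a pair of seed groups, and their mature sequences from RefSeq (GRCh38.p14) are given with the seed, bases 2 to 8, in capitals. The match above is the reverse complement of the seed of hsa-miR-200a-3p and hsa-miR-141-3p.
hsa-miR-200a-3p: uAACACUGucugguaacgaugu
hsa-miR-141-3p: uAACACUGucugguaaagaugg
hsa-miR-200b-3p: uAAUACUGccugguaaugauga
hsa-miR-200c-3p: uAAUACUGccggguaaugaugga
hsa-miR-429: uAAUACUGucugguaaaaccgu
The 7 letters CAGTGTT were found, in the orientation of the probe, in 315 of the 42405 probes (0.743%) and those of the other group, CAGTATT, in 247 (0.582%). Among the 14 member probes the ZEB2 probe was the one with a match. A match is a description of these letters only, and the microRNAs themselves were not measured here.

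The HOTAIR probe, on the minus strand at chr12:54356661-54356720 (hg19), was checked first. Values here and below are log2 processed signals relative to the 75th percentile of the same array, so that 0 is the level below which 75% of the non-control spots lie. HOTAIR measured -6.29, -6.97, -6.42 and -7.07 on the 4 EV arrays and -3.12, -3.24 and -2.58 on the 3 HOTAIR arrays. It was detected on 0 of the EV arrays and on all HOTAIR arrays. With each EV array set to the higher of its own value and the lowest detected signal, the HOTAIR mean was 9.32-fold the EV mean. This is a point estimate and not a lower bound. The fitted log2 difference was 3.71 (limma, adjusted p = 0.00162). It was 1.06 (adjusted p = 0.0251) with normexp background correction, which adds an offset of 50 to every spot. With the replicate number as a block the adjusted p was 0.0772. In that fit EV 4, which has no HOTAIR array of its number, adds nothing to the difference.

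Across the arrays, the 75th percentile lay between an intensity of 523 and 649, and between 54.0% and 57.1% of spots were well above background, with 0 saturated spots. The arrays EV 2 and HOTAIR 3 stood apart from the rest. On the first principal component, which held 51.8% of the variance, EV 2 was at 74.0 and HOTAIR 3 at 21.1, while the other 5 arrays lay between -29.4 and -8.50. Over the 20419 tested probes, EV 2 and HOTAIR 3 deviated together, with a correlation of 0.619 between their distances from the mean of their own group. For several values and overlaps described below that rest on one of these arrays, the result without it is also given. All arrays sat on 1 slide, with EV samples in one row and HOTAIR samples in the next, and position and group cannot be told apart. Since the labels do not say that the samples of a group were separate cultures, the p-values measure only the spread between these samples, which may be technical.

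Of the renal epithelial markers, 8 of 9 were well above background on all 7 arrays, among them PAX8, PAX2 and LHX1, transcription factors of the developing kidney, and the keratins KRT8 and KRT18. The annotated positions of the KRT8 and KRT18 probes, which limit this reading, are given with their differences below. CDH6 was at background on all arrays. Of 12 markers of blood, endothelial, stromal and liver cells, CD14 and CD68 were detected on all 7 arrays, with differences of 0.12 and 0.0090, 7 were on none, and the other 3 on some. The 7 were CD3E, VWF, COL1A1, PDGFRB, DCN, LUM and ALB. The blood marker PTPRC was detected on 2 EV arrays and 1 HOTAIR array. The endothelial marker CDH5 was detected on 3 EV arrays and 1 HOTAIR array, and PECAM1 on 1 EV array and 0 HOTAIR arrays. Though at background, VWF and PDGFRB, named after their values were seen, had all HOTAIR arrays above all EV arrays, with differences of 0.32 and 0.91.

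**Figure D1:**
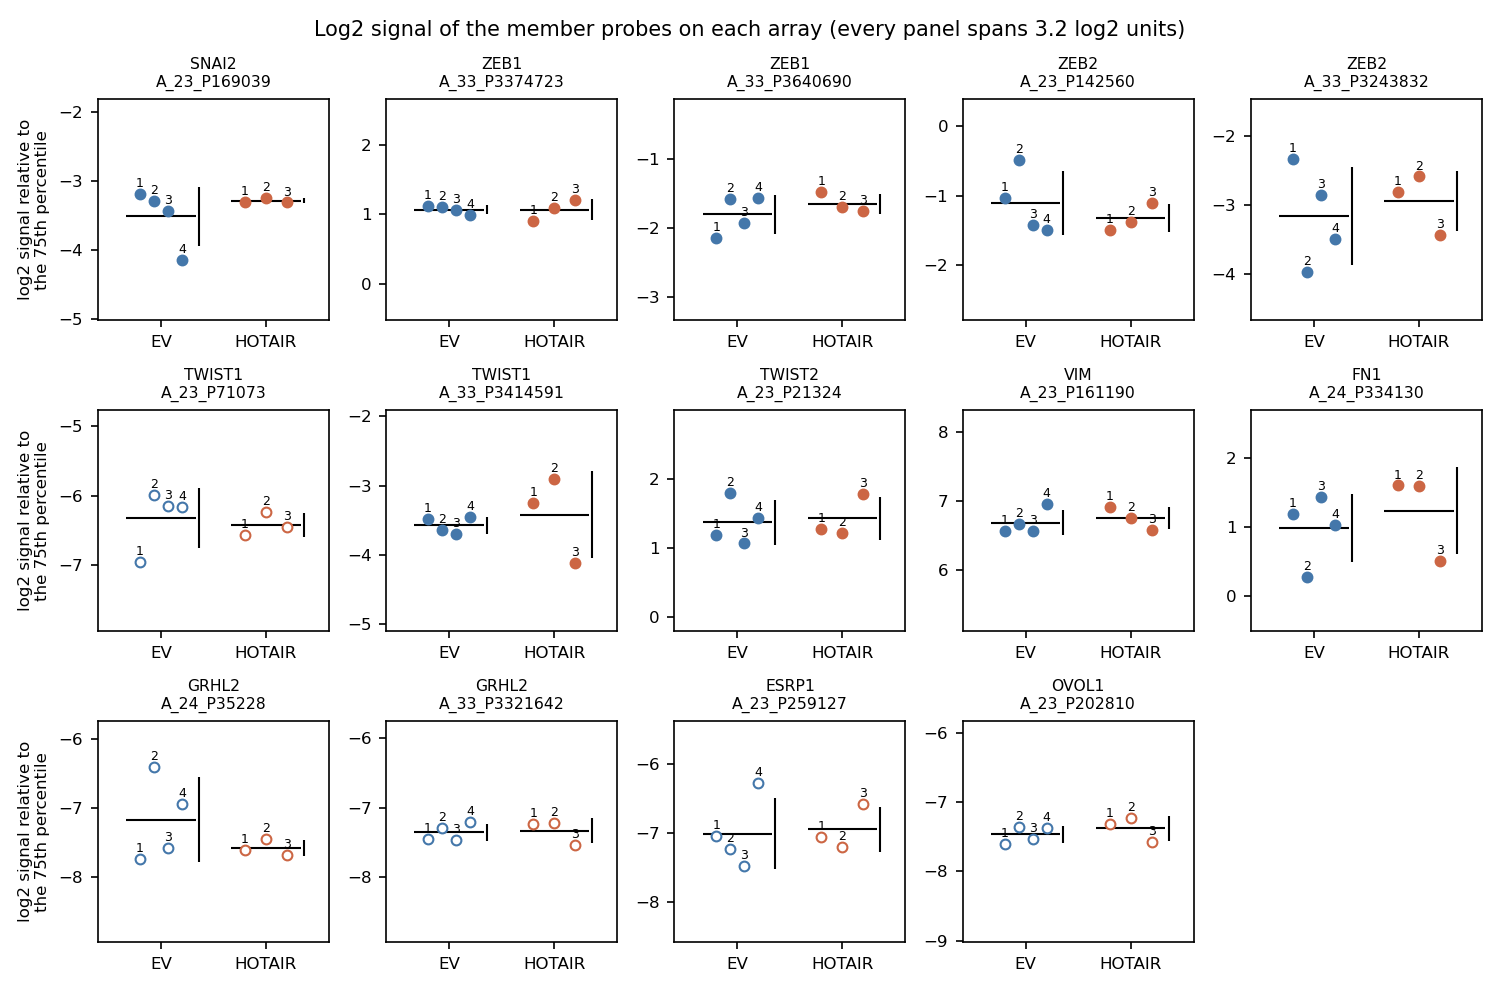
Log2 signal relative to the 75th percentile of the array (vertical axis) for each of the 14 member probes on the 4 EV arrays (blue) and the 3 HOTAIR arrays (red), numbered by array. Horizontal lines are group means, vertical lines 1 SD either side, and hollow circles arrays on which the probe was not well above background. The groups overlap in every panel of filled circles, and the panels of GRHL2, ESRP1 and OVOL1 hold hollow circles only.

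Among the zinc finger factors, SNAI2 (Slug) has 1 probe, on the minus strand at chr8:49830710-49830769 of hg19. It measured -3.19, -3.29, -3.43 and -4.14 in EV cells and -3.30, -3.24 and -3.31 in HOTAIR cells. The HOTAIR arrays lay close together (SD 0.036, n = 3) and inside the EV range, and EV 4 was lower than the rest. The difference was 0.23 ± 0.23 (SE, n = 4 and 3), a ratio between 0.813 and 1.69 at 95% confidence (limma, adjusted p = 0.993). Without EV 4 it was 0.018.

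ZEB1, a repressor of E-cadherin, has a pair of probes on the plus strand of chromosome 10, and both were well above background on all arrays. The brighter, at chr10:31818063-31818122, measured 1.12, 1.11, 1.06 and 0.98 in EV cells and 0.90, 1.09 and 1.21 in HOTAIR cells. The lowest and the highest of the 7 values were both HOTAIR arrays, and the group means were the same to 2 decimals, at 1.07. The difference was -0.0025 ± 0.11 (SE), which bounds the ratio between 0.832 and 1.20. This was the narrowest interval among the members, and its sign turned under several alternative settings.

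The other ZEB1 probe, upstream at chr10:31816261-31816320, measured -2.15, -1.58, -1.92 and -1.56 in EV cells and -1.48, -1.70 and -1.76 in HOTAIR cells. HOTAIR 1 was above all EV arrays and the other HOTAIR arrays were among them. Its difference was 0.15 ± 0.17 (SE), a ratio between 0.842 and 1.47 (limma, adjusted p = 0.993).

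ZEB2, the paralog of ZEB1, was also read by a pair of probes. The downstream one, which holds the seed match shown above, measured -1.04, -0.49, -1.42 and -1.50 in EV cells and -1.50, -1.38 and -1.10 in HOTAIR cells. EV 2 was the highest array, HOTAIR 3 the highest of its group, and the groups overlapped. The difference was -0.22 ± 0.25 (SE), a ratio between 0.572 and 1.30 (limma, adjusted p = 0.993).

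The upstream ZEB2 probe, whose 60 bases are printed above, measured -2.34, -3.96, -2.85 and -3.49 in EV cells and -2.81, -2.59 and -3.43 in HOTAIR cells. Here EV 2 was the lowest array and HOTAIR 3 the lowest of its group, opposite to the downstream probe. Its difference was 0.22 ± 0.39 (SE), the widest interval among the members, with a ratio between 0.614 and 2.19. Without EV 2 the difference was -0.0072 at the downstream probe and -0.053 at the upstream probe.

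The basic helix-loop-helix factor TWIST1 has a pair of probes, which differed in whether they were detected. The probe printed above was well above background on all 7 arrays, at -3.48, -3.64, -3.70 and -3.45 in EV cells and -3.25, -2.90 and -4.12 in HOTAIR cells. The EV arrays lay close together, HOTAIR 1 and HOTAIR 2 were above all of them and HOTAIR 3 below. The difference was 0.15 ± 0.27 (SE), a ratio between 0.717 and 1.71 (limma, adjusted p = 0.993). Without HOTAIR 3 it was 0.50 (adjusted p = 0.762), and without HOTAIR 2 it was -0.11. The other probe, downstream at chr7:19155645-19155704 and with a GC content of 26.7%, was detected on 0 of the 7 arrays and ranged from -6.96 to -6.0. Its duplicate spots differed by a median of 0.71, against 0.05 to 0.15 for the tested member probes with duplicate spots.

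TWIST2, its close relative, has 1 probe on the plus strand at chr2:239832044-239832103. It measured 1.19, 1.80, 1.07 and 1.43 in EV cells and 1.28, 1.22 and 1.79 in HOTAIR cells. EV 2 and HOTAIR 3 were the highest arrays of their groups and nearly equal, and the other 5 lay below both. The difference was 0.055 ± 0.22 (SE), a ratio between 0.730 and 1.48. With EV 2 and HOTAIR 3 both left out it was 0.017.

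Both structural genes were detected on every array. VIM measured 6.56, 6.67, 6.56 and 6.96 in EV cells and 6.91, 6.76 and 6.59 in HOTAIR cells. EV 4 was the highest array and all HOTAIR arrays lay inside the EV range. The processed intensity of its spots, averaged on each array, was between 53894 and 76945 with 0 saturated pixels, so the reading was not capped by the scanner. The difference was 0.062 ± 0.14 (SE) with an interval from -0.27 to 0.39 (limma, adjusted p = 0.993).

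FN1 measured 1.19, 0.29, 1.44 and 1.03 in EV cells and 1.6, 1.6 and 0.51 in HOTAIR cells. HOTAIR 1 and HOTAIR 2 were above all EV arrays, EV 2 and HOTAIR 3 were far below the others, and the groups overlapped. The difference was 0.25 ± 0.36 (SE), a ratio between 0.671 and 2.11 (limma, adjusted p = 0.993). With both low arrays left out it was 0.38 (adjusted p = 0.548), without EV 2 alone 0.019, and without HOTAIR 3 alone 0.62. The size of the FN1 difference therefore rested on these arrays, and it passed the threshold in none of these fits.

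The epithelial regulators gave no reading above background. GRHL2, a grainyhead-like factor that holds the epithelial state, has a pair of probes on the plus strand of chromosome 8, at chr8:102678918-102678977 and chr8:102681572-102681631. The first measured from -7.47 to -7.21 in EV cells and from -7.54 to -7.22 in HOTAIR cells, and the second from -7.74 to -6.40 and from -7.67 to -7.44. ESRP1, at chr8:95680359-95680418, measured from -7.47 to -6.28 in EV cells and from -7.20 to -6.58 in HOTAIR cells. OVOL1, a zinc finger repressor of ZEB1, at chr11:65564519-65564578, measured from -7.60 to -7.36 in EV cells and from -7.58 to -7.24 in HOTAIR cells.

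For comparison, the lowest signal that counted as detected lay between -6.45 and -6.06 on the 7 arrays. The Feature Extraction software had replaced the signal by its noise estimate on 7 of 7 spots for OVOL1 and for the first GRHL2 probe, on 6 of 7 for the second and on 3 of 7 for ESRP1. These 4 probes were therefore not tested and no fold is given. A probe at background does not show that its transcript was absent.

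Of the 9 tested member probes, 0 passed the adjusted p and 0 had groups that did not overlap, against 7.7% of all tested probes with such groups and 5.85% with an unadjusted p under 0.05. Exact two-sided permutation p-values over the 35 splits of the arrays ranged from 0.429 to 1 over these probes, where the smallest possible is 0.0286. With each gene read by its brightest probe, 5 of the 7 genes had a difference above 0 and 2 below, with a median of 0.062. Over all tested probes the median was 0.013 and 52.8% were above 0. With EV 2 and HOTAIR 3 both left out, the groups of TWIST1 and FN1 no longer overlapped, 2 of the 7 genes against 28.2% of all tested probes. Both were higher in HOTAIR cells in that fit, TWIST1 by 0.47 (adjusted p = 0.502) and FN1 by 0.38 (adjusted p = 0.548).

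**Figure D2:**
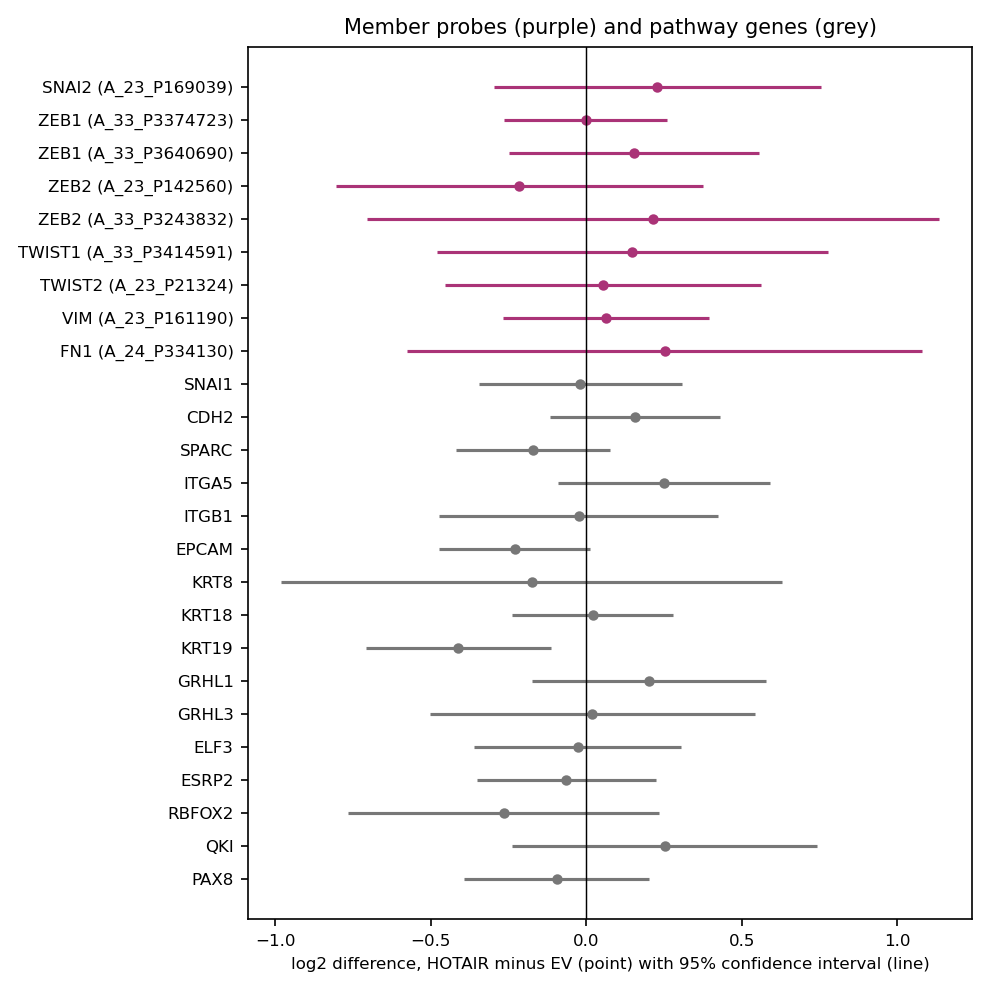
Log2 difference, HOTAIR minus EV (horizontal axis), of the 9 tested member probes (purple) and of pathway genes chosen by name (grey), with points for the limma estimate and lines for its 95% confidence interval. Every member interval spans 0, from the narrow one of the brighter ZEB1 probe (-0.26 to 0.26) to the wide one of the upstream ZEB2 probe (-0.70 to 1.13).

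At every tested member probe the difference between the groups was smaller than the larger group SD. EV 2 and HOTAIR 3 lay on the same side of their group means at 7 of the 9 tested member probes. They were 0.70 and 0.73 below for FN1 and 0.80 and 0.49 below for the upstream ZEB2 probe. They were 0.43 and 0.36 above for TWIST2, and 0.63 and 0.23 above for the downstream ZEB2 probe. VIM and the brighter ZEB1 probe moved little on these arrays, by 0.17 or less in either direction. The part of this array pattern in the member differences was not tested beyond leaving the arrays out.

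**Figure D3:**
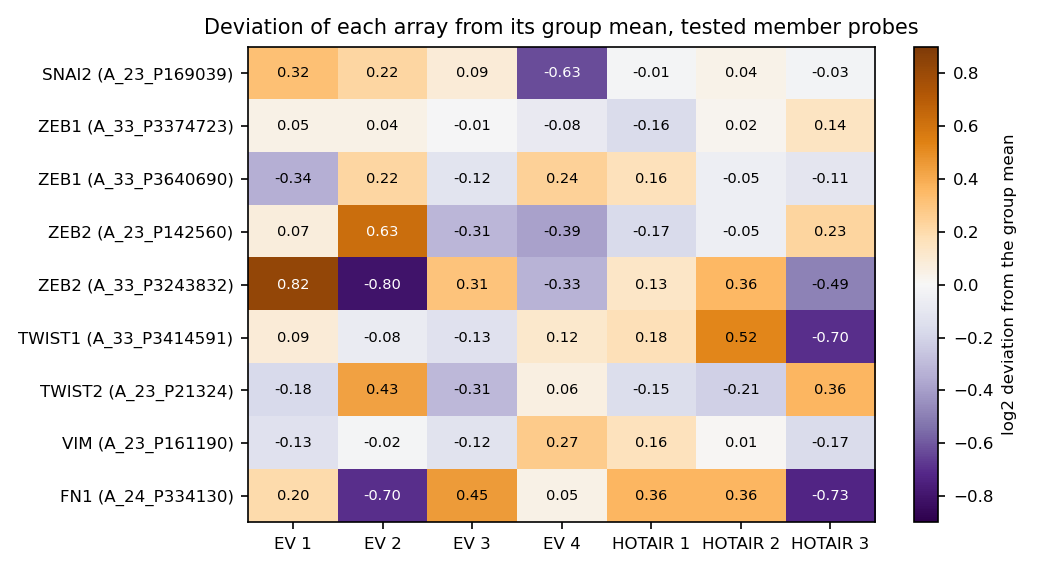
Deviation of each array from its group mean, in log2 units (colour and printed value), for the 9 tested member probes (rows) on the 7 arrays (columns). EV 2 and HOTAIR 3 share their sign at 7 of 9 probes, and the probes of ZEB2 go opposite ways on both arrays.

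Each detected member was set beside the gene whose gene-centred log2 values were nearest to it over the 7 arrays, as a description. The 117 candidates were the detected genes of all lists, with the other members and the cell type markers. The nearest genes were LEF1 for SNAI2 (root-mean-square difference 0.17), CALD1 for ZEB1 (0.05), TCF12 for ZEB2 (0.13) and LHX1 for TWIST1 (0.27). LHX1 is a renal marker, and the root-mean-square spread of TWIST1 itself was 0.35. SPINT2 was nearest to TWIST2 (0.11), COL5A1 to VIM (0.09) and QKI to FN1 (0.21). The arrays share 1 slide, and 7 values with EV 2 and HOTAIR 3 standing apart give a gene many possible neighbours.

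The pathway around the members was described with 7 lists that hold 134 other genes, of which 105 could be tested, 21 were at background on every array and 8 were detected on some arrays only. Of the 105, 0 passed the adjusted p by limma. An unadjusted p under 0.05 was found for 6 (5.71%, against 5.85% of all tested probes) and groups that did not overlap for 7 (6.67%, against 7.7%). The difference was above 0 for 56 (53.3%, against 52.8%) and below for 49. Without EV 2, the groups of 20 genes did not overlap (19%, against 14% of all tested probes), 11 higher and 9 lower in HOTAIR cells, and 0 passed the adjusted p.

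Of 19 other EMT transcription factors and cofactors, 15 were tested, with a median difference of 0.024. SNAI1 (Snail), the zinc finger relative of SNAI2, was detected on all arrays with a difference of -0.019 ± 0.14 (SE), and 0.074 without EV 2. PRRX1, GSC and FOXC2 were at background throughout. The widest difference in this list was that of SOX9, a factor of progenitor and kidney epithelial cells, named here after its value was seen. SOX9 measured -4.42, -3.82, -5.26 and -5.53 in EV cells and -3.65, -3.98 and -3.63 in HOTAIR cells. HOTAIR 2 lay below EV 2, so the groups overlapped, and the difference of 1.00 ± 0.40 (SE) had an adjusted p of 0.785. That overlap rested on EV 2, and without EV 2 all HOTAIR arrays were above all EV arrays, with a difference of 1.32 (adjusted p = 0.237).

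Of 13 other epithelial transcription factors, 7 were tested, with a median of 0.053. The relatives of GRHL2 were detected on all arrays, GRHL1 with a difference of 0.20 ± 0.16 (SE) and GRHL3 with 0.019 ± 0.22 (SE). The epithelial factor ELF3 was also detected, with -0.027 ± 0.14 (SE). OVOL2, the paralog of OVOL1, was at background on all arrays, as were ELF5 and TP63.

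All 14 other EMT-related splicing regulators were detected and tested, with a median of -0.022. ESRP2, the paralog of ESRP1, measured -3.59, -3.71, -3.51 and -3.39 in EV cells and -3.53, -3.54 and -3.78 in HOTAIR cells. It was well above background on all 7 arrays, its groups overlapped, and its difference was -0.065 ± 0.12 (SE). RBFOX2, which promotes mesenchymal splice forms and is named RBM9 on the array, had a difference of -0.27 ± 0.21 (SE). QKI, an RNA-binding protein of mesenchymal splicing, had 0.25 ± 0.21 (SE). Of 13 genes whose transcripts ESRP proteins splice, such as CD44, ENAH and CTNND1, 11 were tested, with differences between -0.17 and 0.068. Splice forms were not resolved, since these probes were read as the level of the gene.

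Of 32 epithelial genes that EMT represses, 25 were tested, 9 with a difference above 0 and 16 below, with a median of -0.085. CDH1 (E-cadherin), the target shared by the member transcription factors, was at background on all 7 arrays, with values from -7.62 to -7.11 in EV cells and from -7.60 to -7.19 in HOTAIR cells. EPCAM, an epithelial adhesion molecule, measured 1.94, 1.77, 1.86 and 1.80 in EV cells and 1.51, 1.69 and 1.64 in HOTAIR cells. All HOTAIR arrays were below all EV arrays, and the difference of -0.23 ± 0.10 (SE) had an adjusted p of 0.881.

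KRT19, a keratin of simple epithelia, measured 6.21, 5.83, 6.04 and 6.05 in EV cells and 5.72, 5.67 and 5.47 in HOTAIR cells. Its groups did not overlap either, and the difference of -0.41 ± 0.13 (SE) had an adjusted p of 0.602. KRT8 and KRT18, which pair in simple epithelia, had -0.18 ± 0.35 (SE) and 0.020 ± 0.11 (SE). KRT8 was highest on EV 2, at 6.41, and without EV 2 its difference was 0.15. The array annotation places the KRT8 probe at chr8:62492357-62492416 and the KRT18 probe at chrY:5442341-5442400, while naming them by these genes. Whether the probes also read other loci was not tested. The other epithelial genes whose groups did not overlap were the claudin CLDN3, with -0.31 (adjusted p = 0.878), and the junction gene MARVELD2, with -0.29 (adjusted p = 0.836), both named after their values were seen. In all, 4 of the 25 tested epithelial genes had such groups, against 7.7% of all tested probes.

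Of 29 mesenchymal genes that EMT raises, 20 were tested, 10 with a difference above 0 and 10 below, with a median of -0.0030. CDH2 (N-cadherin) measured 2.93, 3.14, 2.94 and 2.90 in EV cells and 3.14, 3.28 and 3.00 in HOTAIR cells. HOTAIR 3 lay below EV 2, and HOTAIR 1 just below it (3.1375 against 3.14), so the groups overlapped. The difference was 0.16 ± 0.12 (SE, adjusted p = 0.983). Without EV 2 all HOTAIR arrays were above all EV arrays, with a difference of 0.21 (adjusted p = 0.757). SPARC, a matrix glycoprotein, had -0.17 ± 0.11 (SE). The fibrillar collagens COL1A1, COL1A2 and COL3A1, the protease MMP2 and the matrix gene POSTN were at background on all arrays.

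The last list holds 14 filament and matrix partners of vimentin and fibronectin, of which 13 were tested, with a median of 0.089. The difference was above 0 for 12 of them, against 52.8% of all tested probes. Of the fibronectin receptor subunits, ITGA5 had 0.25 ± 0.15 (SE) and ITGB1 -0.025 ± 0.19 (SE). Without EV 2 the difference of ITGB1 was 0.12. In the same fit ITGB3 went the other way, from 0.087 to -0.069, and so did SDC4, from 0.089 to -0.26. Named after their values were seen, the filament proteins SYNM and NES and the matrix crosslinker TGM2 were the genes of this list whose HOTAIR arrays were all above all EV arrays. These are 3 of the 13 tested genes, against 7.7% of all tested probes whose groups did not overlap in either direction. SYNM, which assembles with vimentin, measured -0.95, -1.11, -1.0 and -1.13 in EV cells and -0.68, -0.63 and -0.56 in HOTAIR cells. Its difference of 0.42 ± 0.10 (SE) had an adjusted p of 0.338. NES had 0.28 (adjusted p = 0.785) and TGM2 0.30 (adjusted p = 0.771).

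**Figure D4:**
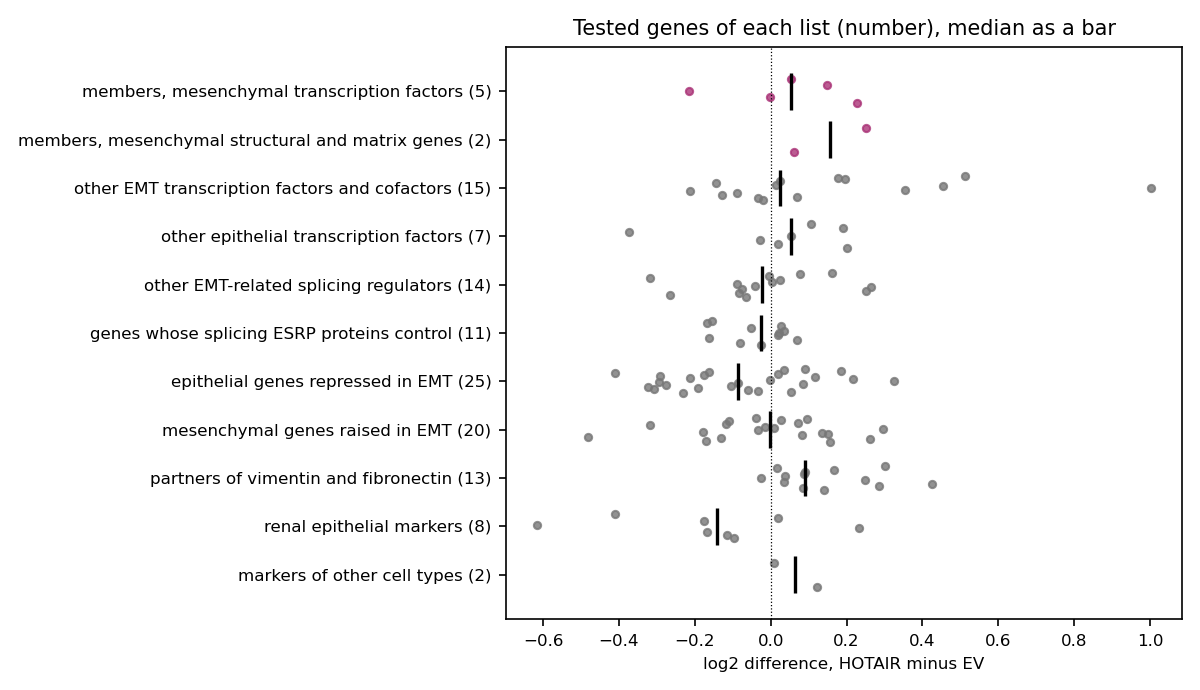
Log2 difference, HOTAIR minus EV (horizontal axis), of every tested gene in each list (rows, with the number of tested genes), read by its brightest tested probe. Points are genes, black bars list medians, and member genes are purple. The list medians of the members and of the 7 pathway lists lie between -0.085 and 0.16, and no gene shown passed the adjusted p.

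Of the 8 tested renal markers, 2 had a difference above 0 and 6 below, with a median of -0.14 against 0.013 for all tested probes, and 0 passed the adjusted p. PAX8 had -0.096 ± 0.13 (SE). The kidney cadherin CDH16, named after its values were seen, measured 1.02, 1.21, 0.69 and 1.13 in EV cells and 0.58, 0.55 and 0.071 in HOTAIR cells. Like those of KRT19, its groups did not overlap, with all HOTAIR arrays lower, and its difference of -0.62 ± 0.18 (SE) had an unadjusted p of 0.00996 and an adjusted p of 0.531 by limma. Such groups were found for 2 of the 8 tested renal markers, against 7.7% of all tested probes. KRT8, KRT18 and KRT19 are also in the list of epithelial genes, with the same probes. KRT19 is therefore counted in both lists, and their counts are not independent. Within 50 kb of the mapped member probes lay 8 probes of other transcripts. Of these, adjoining probes for a lincRNA, at chr2:239795604-239795663 and chr2:239795664-239795723 on the strand of TWIST2 and 36381 and 36321 bases before its probe, were well above background on all 7 arrays. They had differences of 0.017 and 0.069, and their groups overlapped. Named after their values were seen, the probes of NCALD, near GRHL2, and DKFZp761E198, near OVOL1, were also well above background on all 7 arrays. Both lay on the strand opposite to the member probe, with differences of 0.11 and 0.34 and overlapping groups.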

How the data were processed

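Gene expression was measured in 4 EV and 3 HOTAIR samples, 1 per single-colour array. The authors extracted the images with Agilent Feature Extraction 10.7.3.1 and deposited 1 file per array, in which each spot has a processed intensity (background subtracted and detrended, with low signals replaced by a noise estimate), background and outlier calls, and a probe annotation on hg19. They also deposited a table of processed intensities, whose 411019 compared cells lay within 0.498% of the scanner files, so it is linear and unscaled.

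Processed intensities were put on a log2 scale, and the 75th percentile of the 58717 non-control spots was subtracted array by array. Outlier spots (408 to 600 per array) were left out, repeated spots were averaged, and 2 probes were dropped for missing values. A probe counted as well above background on an array where a share of at least 0.5 of its spots did. A probe was tested if this held for all EV arrays or all HOTAIR arrays (20419 probes, 16664 gene names), with the HOTAIR minus EV difference from limma 3.58.1 (lmFit and eBayes, R 4.3.3) and Benjamini-Hochberg adjustment over all of them at 0.05. limma was chosen because the rank product named in the study's methods gives no error for a single gene. A gene with several tested probes is represented by its brightest. The number of arrays limits the precision.

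The members and the gene lists were chosen with earlier results of these data known. All members are named, besides HOTAIR, pathway genes chosen by name whatever their values, lincRNA probes within 50 kb and the nearest list gene of each detected member. Names outside this rule are marked, and a few genes of the lists are counted but not reported here by name. Accessions of all 10 members were found in the RefSeq gene table, and RBFOX2, SRSF1, CELF1 and PLEC were found under older names. Same-numbered arrays of the groups correlated at 0.386, -0.368 and -0.406 in their deviations. With EV 2 and HOTAIR 3 standing apart, these values cannot decide whether the numbers pair the samples, and the labels do not say so. The 19 alternatives covered background correction, scaling, the deposited table, the filter on dim probes, moderation, array weights, the replicate number as a block, the mean over probes and each array left out, with EV 2 and HOTAIR 3 left out together added after the data were seen, as was the count of genes whose groups did not overlap without EV 2 or without both. The exact Mann-Whitney U test was also run.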

Additional observations from a re-analysis of the deposited data

How the results depend on the processing

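Under the 19 alternatives, 0 member genes and 0 genes of any list passed the adjusted p, and the smallest adjusted p of a member was 0.223, for TWIST1 with array weights. Exact Mann-Whitney p-values of the 9 tested member probes lay between 0.4 and 1, where the smallest possible is 0.0571. SNAI2, the downstream ZEB2 probe, the upstream ZEB1 probe and FN1 kept their direction throughout. With 4 and 3 arrays, member differences inside the intervals given above could not be told from 0.

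The number of probes called was 34, and it was 12 with normexp, 14 with no filter on dim probes, 22 with only probes detected on all arrays, 20 with limma's trend and robust moderation, 324 with array weights, 14 without EV 2 and HOTAIR 3 and between 9 and 31 with 1 array left out. With the replicate number as a block it was 0 (1073 at an unadjusted p under 0.05). EV 4 has no HOTAIR array of its number, so it adds nothing there and the fit has fewer arrays to call from. Whether the block stands for a pairing is not known, and no member or pathway gene was called with it either.

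The cause of the changes of sign was not tested. The brighter ZEB1 probe measured -0.0025, and 0.083 with normexp, 0.015 with quantile normalization, 0.0042 with the 75th percentile over detected probes, 0.040 in the deposited table and 0.076 as the mean over its probes. GRHL3 measured -0.066 with normexp and -0.15 with quantile normalization, which also gave -0.014 for KRT18. The deposited table gave 0.023 for SNAI1, 0.015 for ELF3 and 0.019 for ITGB1. Array weights gave 0.053 for SNAI1, 0.053 for KRT8 and 0.038 for PAX8. Without EV 2 and HOTAIR 3, SNAI1 measured 0.041, KRT8 0.0082 and ITGB1 0.064.

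With 1 array left out in turn, the differences ranged from -0.073 to 0.080 for ZEB1, -0.13 to 0.20 for TWIST2, -0.053 to 0.49 for the upstream ZEB2 probe, -0.017 to 0.15 for VIM and -0.11 to 0.50 for TWIST1. They ranged from -0.075 to 0.074 for SNAI1, -0.13 to 0.16 for GRHL3, -0.097 to 0.081 for ELF3, -0.026 to 0.076 for KRT18, -0.33 to 0.15 for KRT8, -0.15 to 0.12 for ITGB1 and -0.12 to 0.016 for ESRP2.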

Other observations

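A group of 8 pathway genes was detected on some arrays but on every array of neither group, and was not tested. Those given here were named after their values were seen. The epithelial factor EHF was well above background on HOTAIR 2 alone, at -5.03, with its other 6 values between -7.50 and -7.06. GATA3, a zinc finger factor of epithelial cells, was detected on HOTAIR 1 alone, at -5.13, with the others between -7.57 and -7.23. GFAP, a filament relative of vimentin, was also detected on HOTAIR 1 alone, at -4.66, with the others between -7.47 and -6.91. The mesenchymal cadherin CDH11 was detected on HOTAIR 2 alone, at -5.82, with the others between -7.59 and -7.19. SNAI3, a relative of SNAI2, was detected on 1 EV array and 0 HOTAIR arrays, with EV values from -5.78 to -4.94 and HOTAIR values from -6.47 to -5.87. The remaining 3 were FBN1, FGFR2 and MAGI1.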
